A study of Homo sapiens with 6 samples.

Results

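The heat shock proteins, J-domain proteins and chaperonins are described here in T24 cells, an established human bladder carcinoma line, after exposure to oxidised low-density lipoprotein (ox-LDL). Members were the probe sets whose platform gene symbol named an HSPA, HSPB, DNAJA, DNAJB, DNAJC or CCT gene, or HSPD1, HSPE1, HSPH1, HSP90AA1 or HSP90AB1. HSPA5, DNAJB9 and DNAJC3 were dropped by the rule. The rule itself reads symbols, but it was written with earlier results of these data known. It found 73 genes, each with 1 probe set, among 21448 probe sets tested, of which 17709 carried a gene symbol. By symbol, 9 were HSP70 genes, 3 HSP110 genes, 2 HSP90 genes and 6 small heat shock proteins. A further 4 were DNAJA, 11 DNAJB and 26 DNAJC genes, 8 were subunits of the cytosolic chaperonin CCT and 2 formed the mitochondrial chaperonin. The last 2 were kept apart as other: CCT8L2, a CCT8-like gene, and DNAJC25-GNG10, a read-through of DNAJC25 into its neighbour. TCP1, HSPA8 and HSPA1B were not analysed here, since no tested probe set carried those symbols.

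The study compared 3 arrays of vehicle-treated cells with 3 arrays of cells given ox-LDL at 20 µg/mL. Both groups were T24 cells seeded sparsely, kept without serum for 12 h, then exposed to ox-LDL or vehicle for 24 h before total RNA was hybridised. Serum at 10% was also recorded for all 6 arrays. What the vehicle contained was not given in the sources used here. The labels do not say that replicates came from separate cultures, so each p-value reflects the scatter among these 6 arrays alone, and that scatter may be technical. One text field of the labels instead describes the vehicle arrays as negative control siRNA and the ox-LDL arrays as G9a siRNA. EHMT2, the gene of G9a, measured 7.85 ± 0.19 with vehicle and 8.22 ± 0.14 with ox-LDL (log2, SD, n = 3), a difference of 0.37 that did not pass (limma adjusted p = 0.125).

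Chaperones bind proteins that are not yet folded, or no longer are. HSP70 binds clients loosely with ATP and tightly with ADP. A J-domain protein brings the client and triggers ATP hydrolysis, and a nucleotide exchange factor such as an HSP110 swaps ADP for ATP so that the client is released. HSP90 acts later on kinases and receptors, small heat shock proteins hold damaged proteins without ATP, and the ring-shaped chaperonins enclose a chain while it folds, actin and tubulin in the case of CCT. Heat shock factor HSF1 drives the inducible cytosolic genes through repeats of nGAAn in their promoters, whereas stress in the endoplasmic reticulum drives a separate set of chaperones of that compartment.

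Promoter letters are shown first so that the values of genes with and without heat shock letters can be read against them. RefSeq windows on GRCh38.p14, from 250 bases before to 50 after a start, were found for 66 of the 73 genes; CCT6A, HSPA14, HSPA12B, DNAJC1, DNAJC24, DNAJC5B and DNAJC22 had none. Windows were searched for the heat shock pairs GAANNTTC and TTCNNGAA, each the same on both strands, and for the 3-unit element that joins one pair to the other through a shared unit and therefore contains both. The pair GAANNTTC was in 16 of 66 genes, against 7.41% of the 14250 genes with a window, and TTCNNGAA was in 14, against 8.84%. The 3-unit element was in 6 (DNAJA1, DNAJB6, HSP90AA1, HSP90AB1, HSPA6 and HSPD1), against 0.561% of all genes. A match is a description of letters and not evidence of a bound site. The DNAJA1 element lies after the start and is not printed. Those of the other genes are printed below with up to 6 flanking bases, 5′ to 3′ on the gene's strand, with the element in capitals.
HSP90AA1, minus strand, chr14:102087114-102087138: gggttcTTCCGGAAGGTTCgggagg
HSP90AB1, plus strand, chr6:44247772-44247796: agcaggTTCTGGAAGATTCatgggc
HSP90AB1, plus strand, chr6:44247825-44247849: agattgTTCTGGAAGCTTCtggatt
HSPA6, plus strand, chr1:161524460-161524484: gaaaggTTCGCGAAAGTTCgcggcg
DNAJB6, plus strand, chr7:157336867-157336891: agccgaGAACCTTCGCGAAggtggg
HSPD1, minus strand, chr2:197500062-197500090: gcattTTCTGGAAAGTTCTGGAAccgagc

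The HSPD1 element lies in the stretch between HSPD1 and HSPE1, which are transcribed away from each other. It begins 228 bases upstream of the HSPD1 start at position 197499840 and lies 294 bases upstream of the HSPE1 start at 197500379 on chromosome 2, and those starts are 539 bases apart. A further HSPD1 start, at 197500274, lies on the HSPE1 side of the element. For contrast, the 100 bases before the start are printed for 3 genes that fell with ox-LDL and whose windows hold no heat shock pair. Capitals mark the CCAAT box on either strand, which was in 25 of 66 member windows against 42.3% of all genes.
DNAJB11, plus strand, chr3:186570620-186570719: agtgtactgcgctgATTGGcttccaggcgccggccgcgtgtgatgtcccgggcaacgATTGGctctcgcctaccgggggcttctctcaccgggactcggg
HSPA13, minus strand, chr21:14383147-14383246: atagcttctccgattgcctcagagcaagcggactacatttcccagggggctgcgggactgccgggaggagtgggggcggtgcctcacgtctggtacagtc
DNAJC16, plus strand, chr1:15526748-15526847: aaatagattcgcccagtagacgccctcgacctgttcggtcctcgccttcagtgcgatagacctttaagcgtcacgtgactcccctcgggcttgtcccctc

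All values are log2 intensities, normalised by the submitters with RMA, and a difference is ox-LDL minus vehicle. A gene was called when limma's adjusted p over all tested probe sets was under 0.05. Array medians lay between 7.11 and 7.18, and the median difference over all tested probe sets was -0.03. Vehicle replicate 3 was the array least like the rest. It correlated with them at 0.979 to 0.988, while the remaining 5 correlated with each other at 0.992 to 0.997. Many member differences are given both with and without this array, but not all of those that moved. Without it the differences of 40 of the 73 genes moved by over 1.5 times or turned sign, and none of the 5 genes that passed was among them. The 5 were called with this array included, and differences near 0 move by such a ratio easily, so this is only a description. The same share over all probe sets was not computed. Of the labelled cell type's markers, KRT8, KRT18, KRT7 and VIM were far above background in both groups, while CDH1, UPK1B and UPK3A did not exceed 5.09, the level under which 95% of negative control probe sets lay and which is called background here. None of the 13 epithelial, 4 mesenchymal, 5 leukocyte, 3 endothelial or 4 fibroblast markers passed. Of the epithelial and mesenchymal markers, CDH2 (0.43, limma adjusted p = 0.0516), KRT7 (0.28) and KRT8 (0.11) were higher on every ox-LDL array. UPK2 (-0.20), ZEB1 (-0.19) and the endothelial VWF (-0.30) were lower on every ox-LDL array, while PECAM1 (-0.32) overlapped. All 5 leukocyte markers had differences below 0: PTPRC and LYZ were at background, CD3E overlapped, and CD14 (-0.36) and CD79A (-0.26) were lower on every ox-LDL array. All 4 fibroblast markers were also below 0, DCN, COL1A1 and COL1A2 (each -0.32) without overlap, and their part in the results was not tested. Vehicle replicate 3 was the highest array in DCN, COL1A1, COL1A2, CD14 and CD79A. COL1A2 measured 8.46, 8.52 and 9.13 with vehicle and 8.35, 8.36 and 8.45 with ox-LDL. In RNA from a culture, fewer cells of one kind and less RNA per cell cannot be told apart.

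With ox-LDL, 5 chaperone genes fell and none rose by limma. HSPA13, DNAJC16, DNAJC10 and DNAJB11 belong to the endoplasmic reticulum, and DNAJB2 is a J-domain protein with ubiquitin-interacting motifs. The 5 are 6.85% of the 73 genes, close to the 6.77% of all probe sets called in either direction. By direction, 0 of 73 were higher where 3.48% of all probe sets were, and 5 of 73 were lower where 3.29% were. At an unadjusted p under 0.05, 23 of 73 differed (31.5%), against 26.1% of all probe sets. The SE of a difference ranged from 0.07 to 0.22 with a median of 0.10, and 18 genes had a 95% interval inside ±0.3, while the intervals of the rest reached further. Of the 68 genes that did not pass, 10 had a difference beyond 0.3 in size.

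**Figure D1:**
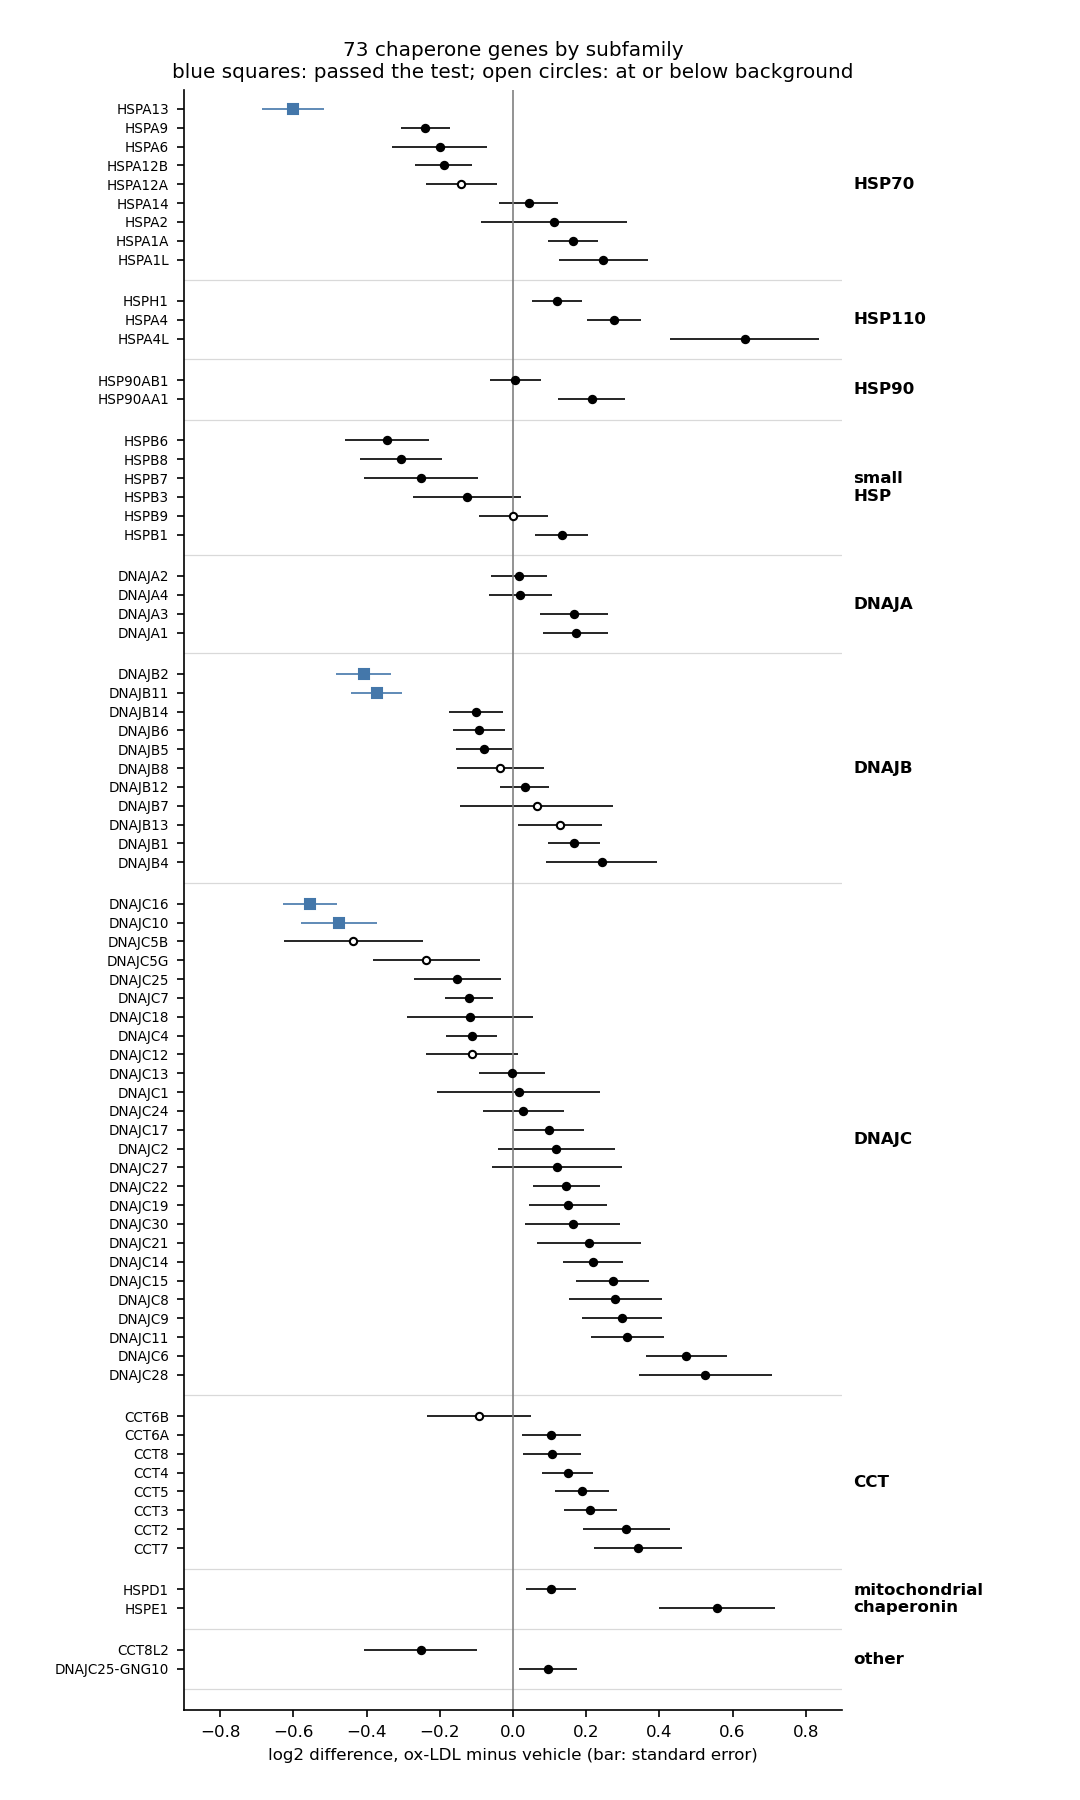
Log2 difference between ox-LDL and vehicle (x axis) for each of the 73 chaperone genes, grouped by subfamily, with bars of 1 standard error from limma. The 5 blue squares passed and all lie left of 0, between -0.60 and -0.37; open circles mark the 9 genes at or below background in both groups.

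The spread between vehicle arrays was wider than between ox-LDL arrays. The median SD over the 73 genes was 0.14 with vehicle and 0.05 with ox-LDL, and the vehicle SD was the larger in 59 of 73 genes, as in 74.4% of all probe sets. The third vehicle array was the lowest of its group in 38 of 73 genes (52.1%), against 37.8% of all probe sets. All 3 ox-LDL arrays lay above all vehicle arrays in 24 of 73 genes (32.9%), against 19.1% of all probe sets, and in 17 of those 24 the third vehicle array was the lowest. Above background this held for 24 of 64 members and 3955 of 17115 probe sets. All 3 ox-LDL arrays lay below all vehicle arrays in 12 of 73 (16.4%), against 17.7%. The median difference of the members was 0.10, with 46 above 0 and 27 below. Without the third vehicle array that median was 0.04, and with cyclic loess 0.06. The members' median level was 8.69, against 7.13 for all probe sets. The 10724 probe sets above the median level had a median difference of 0.05.

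Among the HSP70 genes, 1 fell. HSPA13, also called STCH, is an HSP70 relative of the microsomes that lacks the usual peptide-binding domain. It measured 11.11, 10.96 and 10.86 with vehicle and 10.36, 10.41 and 10.37 with ox-LDL. The groups did not overlap, and the lowest vehicle array stood well above the highest ox-LDL array. Its mean went from 10.98 ± 0.12 to 10.38 ± 0.03, a fall of 1.52-fold (difference -0.60, SE 0.08, limma adjusted p = 0.0109). Without the third vehicle array the difference was -0.66.

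The other HSP70 genes did not pass, and their differences pointed both ways, 4 above 0 and 4 below. HSPA9, or mortalin, pulls proteins into the mitochondrial matrix and folds them there; it measured 11.74, 11.77 and 11.81 with vehicle and 11.55, 11.52 and 11.52 with ox-LDL. The arrays of each group lay close together and apart from the other group, with a difference of -0.24 (SE 0.07, limma adjusted p = 0.0815). HSPA12B, a distant relative found in endothelium, measured 6.95, 6.80 and 6.83 with vehicle and 6.60, 6.69 and 6.72 with ox-LDL, a difference of -0.19 with no overlap (limma adjusted p = 0.185).

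HSPA1A, the classical stress-inducible HSP70, measured 9.28, 9.29 and 9.23 with vehicle and 9.39, 9.47 and 9.44 with ox-LDL. The ox-LDL arrays were all higher, by 0.16 on average (SE 0.07), and the gene did not pass (limma adjusted p = 0.186). HSPA1B is nearly identical in sequence, so which copy this probe set reads is uncertain. HSPA6, strictly induced by heat in human cells, differed by -0.20 with overlapping groups, and HSPA1L by 0.25. Without the third vehicle array they differed by -0.06 and 0.14. HSPA1L lay near background, with a mean of 5.07 with vehicle and 5.32 with ox-LDL. HSPA14, HSPA2 and HSPA12A ranged from -0.14 to 0.11, with HSPA12A at background; HSPA2 moved from 0.11 to 0.34 without the third vehicle array.

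The 3 HSP110 genes, which exchange the nucleotide of HSP70, all lay above vehicle on every ox-LDL array and none passed. HSPA4L measured 9.84, 9.85 and 9.11 with vehicle and 10.14, 10.21 and 10.35 with ox-LDL. The third vehicle array was far below the other vehicle arrays, and the difference was 0.63 (SE 0.20, limma adjusted p = 0.114). HSPA4 measured 10.04, 10.03 and 9.90 with vehicle and 10.26, 10.25 and 10.28 with ox-LDL, a difference of 0.28 (SE 0.07, limma adjusted p = 0.0724). HSPH1, itself heat-inducible, measured 11.42, 11.48 and 11.47 with vehicle and 11.53, 11.60 and 11.60 with ox-LDL, a difference of 0.12 (limma adjusted p = 0.296). Without the third vehicle array HSPA4L and HSPA4 passed, at 0.39 (limma adjusted p = 0.0322) and 0.23 (limma adjusted p = 0.0462).

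The cytosolic HSP90 pair did not pass. HSP90AA1, the inducible form, measured 12.03, 12.12 and 11.83 with vehicle and 12.21 on each ox-LDL array. Its ox-LDL arrays were nearly equal and above every vehicle array, with a difference of 0.21 (SE 0.09, limma adjusted p = 0.198) that became 0.13 without the third vehicle array. HSP90AB1, the constitutive form, measured 11.92, 12.01 and 11.99 with vehicle and 11.99, 11.94 and 12.01 with ox-LDL. These overlapped, the difference was 0.01 (95% interval -0.16 to 0.17), and its sign turned under both further normalisations.

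None of the 6 small heat shock proteins passed, and 4 had differences below 0. HSPB6 measured 7.30, 7.21 and 7.48 with vehicle and 7.10, 7.06 and 6.80 with ox-LDL, a difference of -0.34 (SE 0.11, limma adjusted p = 0.124). HSPB8, which works with BAG3 in the removal of misfolded proteins, measured 4.99, 5.18 and 5.12 with vehicle and 4.62, 4.77 and 4.98 with ox-LDL. Both were lower on every ox-LDL array, though HSPB8 lay near background, with a difference of -0.31 (limma adjusted p = 0.145). HSPB1, or HSP27, which also binds actin filaments, measured 11.92, 11.95 and 12.06 with vehicle and 12.14, 12.10 and 12.09 with ox-LDL. Its difference was 0.13 without overlap (limma adjusted p = 0.285), and HSPB7, HSPB3 and HSPB9 ranged from -0.25 to 0.00. Without the third vehicle array HSPB7 moved from -0.25 to -0.11 and HSPB3 turned from -0.13 to 0.03.

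Of the 4 DNAJA genes, the HSP40 proteins with a full zinc-binding region, none passed. DNAJA1, a farnesylated partner of cytosolic HSP70, measured 11.53, 11.56 and 11.31 with vehicle and 11.63, 11.64 and 11.65 with ox-LDL. Its difference was 0.17 (SE 0.09, limma adjusted p = 0.267) and 0.09 without the third vehicle array. DNAJA3, the mitochondrial member, measured 8.53, 8.29 and 8.56 with vehicle and 8.65, 8.58 and 8.65 with ox-LDL, a difference of 0.17 (limma adjusted p = 0.294) that became 0.08 without the second vehicle array. DNAJA2 and DNAJA4 both differed by 0.02 with overlapping groups, and the sign of DNAJA2 turned under both further normalisations.

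Of the 11 DNAJB genes, DNAJB2 and DNAJB11 fell. DNAJB11, or ERdj3, delivers unfolded proteins to the HSP70 of the endoplasmic reticulum. It measured 10.34, 10.34 and 10.25 with vehicle and 9.93, 9.96 and 9.91 with ox-LDL. The arrays of each group were tightly placed and did not overlap, for a 1.29-fold fall (10.31 ± 0.05 to 9.93 ± 0.02, difference -0.37, SE 0.07, limma adjusted p = 0.0264). DNAJB2, or HSJ1, passes clients from HSP70 to the proteasome and measured 8.84, 8.84 and 8.74 with vehicle and 8.45, 8.42 and 8.33 with ox-LDL. It too had no overlap and fell by 1.33-fold (8.81 ± 0.06 to 8.40 ± 0.06, difference -0.41, SE 0.07, limma adjusted p = 0.0257).

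DNAJB1, the inducible HSP40 that works with HSPA1A, measured 9.85, 9.87 and 9.93 with vehicle and 10.02, 10.11 and 10.02 with ox-LDL. All ox-LDL arrays were higher, with a difference of 0.17 (SE 0.07, limma adjusted p = 0.195). DNAJB4 measured 8.65, 8.60 and 8.09 with vehicle and 8.64, 8.73 and 8.70 with ox-LDL, and its difference of 0.24 (limma adjusted p = 0.343) was 0.06 without the third vehicle array. The other 7 DNAJB genes ranged from -0.10 to 0.13, and DNAJB7, DNAJB8 and DNAJB13 were at background.

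The 26 DNAJC genes share only the J domain and differ in the rest of the protein. DNAJC16 and DNAJC10 fell, and the remaining 24 did not pass. DNAJC16, or ERdj8, is a membrane protein of the endoplasmic reticulum. It measured 8.87, 8.78 and 8.91 with vehicle and 8.34, 8.31 and 8.25 with ox-LDL, with the groups far apart. The mean went from 8.85 ± 0.06 to 8.30 ± 0.05, a 1.47-fold fall with the smallest adjusted p among the 73 genes (difference -0.55, SE 0.07, limma adjusted p = 0.00879).

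DNAJC10, or ERdj5, is a disulfide reductase that opens misfolded proteins for export to the proteasome. It measured 10.22, 10.13 and 9.86 with vehicle and 9.62, 9.58 and 9.59 with ox-LDL. The third vehicle array was the lowest of its group and still above all ox-LDL arrays, for a 1.39-fold fall (10.07 ± 0.19 to 9.60 ± 0.02, difference -0.47, SE 0.10, limma adjusted p = 0.0443). Without that array the difference was -0.58, and the call was lost with arrays set to equal medians (limma adjusted p = 0.0680) and with the unmoderated statistic (adjusted p = 0.105).

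**Figure D2:**
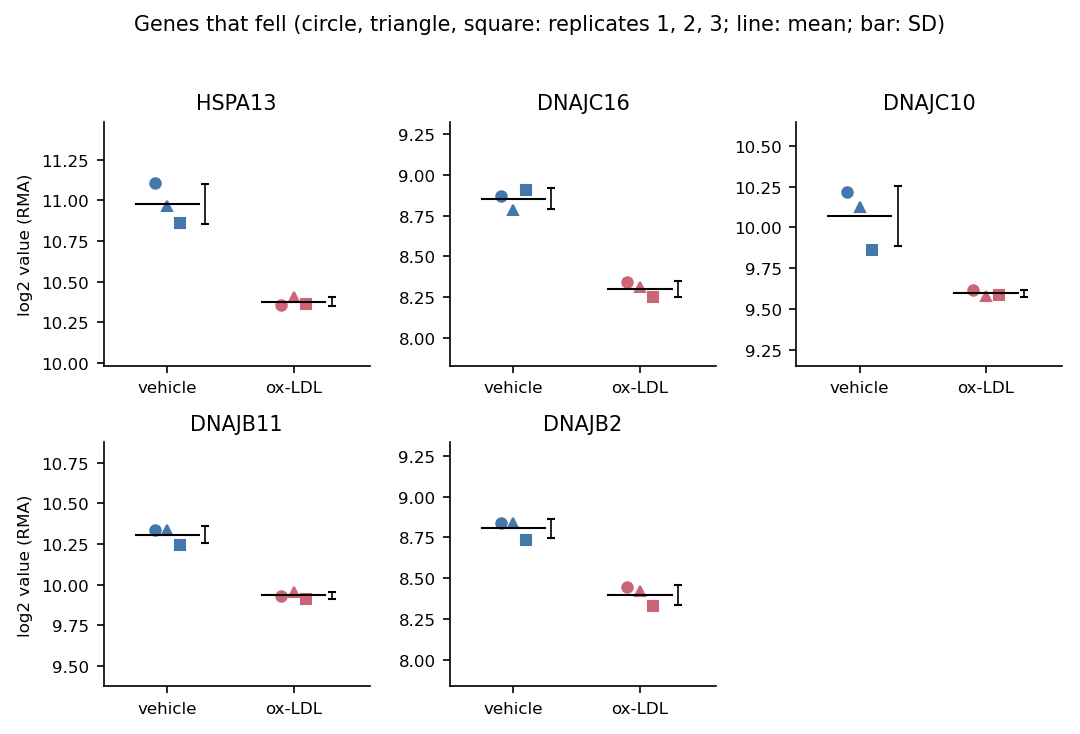
Log2 values (y axis) of the 5 genes that fell, for each vehicle and ox-LDL array, with the group mean as a line and the SD as a bar. In every panel the 3 ox-LDL arrays lie below the 3 vehicle arrays, and the widest vehicle spread is that of DNAJC10 (SD 0.19).

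DNAJC6, or auxilin, a clathrin-uncoating protein best known from neurons, measured 5.67, 5.65 and 5.32 with vehicle and 5.96, 6.01 and 6.09 with ox-LDL. It was higher on every ox-LDL array, by 0.47 (SE 0.11, limma adjusted p = 0.0528), and it passed without the third vehicle array at 0.36 (limma adjusted p = 0.0227). Its mean was 5.54 with vehicle and 6.02 with ox-LDL, the former not far above background (5.09). DNAJC11, of the mitochondrial membranes, measured 9.24, 9.13 and 8.93 with vehicle and 9.51, 9.37 and 9.37 with ox-LDL, a difference of 0.31 (SE 0.10, limma adjusted p = 0.113). Other differences above 0 with no overlap were those of DNAJC28 (0.53), DNAJC9 (0.30), DNAJC8 (0.28), DNAJC15 (0.27), DNAJC14 (0.22) and DNAJC21 (0.21). So 8 of the 26 lay above vehicle without overlap and 4 below, against 19.1% and 17.7% of all probe sets. Besides DNAJC16 and DNAJC10, those below were DNAJC7 (-0.12) and DNAJC4 (-0.11). DNAJC5B, at background, differed by -0.44 with overlapping groups, and by -0.22 without the third vehicle array. Without the third vehicle array the difference of DNAJC28, which had a wide error (SE 0.18), was 0.32, that of DNAJC9 0.19, that of DNAJC8 0.14 and that of DNAJC21 0.04. DNAJC27 turned from 0.12 to -0.08 without that array, and DNAJC2 from 0.12 to -0.07. Of the 26 genes 16 had differences above 0, but without that array 12 did, and the DNAJC median moved from 0.11 to -0.05.

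The CCT complex folds actin and tubulin, and its 7 subunits above background had differences above 0 without passing. CCT7 measured 10.09, 10.16 and 9.74 with vehicle and 10.29, 10.38 and 10.35 with ox-LDL, a difference of 0.34 (SE 0.12, limma adjusted p = 0.137). CCT2 measured 11.04, 10.97 and 10.62 with vehicle and 11.18, 11.21 and 11.16 with ox-LDL, a difference of 0.31 (SE 0.12, limma adjusted p = 0.161). In both, the third vehicle array was the low one, and without it their differences were 0.21 and 0.18.

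CCT3 measured 11.09, 11.14 and 10.98 with vehicle and 11.28, 11.29 and 11.27 with ox-LDL, a difference of 0.21 (limma adjusted p = 0.131). CCT5 measured 11.22, 11.27 and 11.15 with vehicle and 11.45, 11.42 and 11.34 with ox-LDL, a difference of 0.19 (limma adjusted p = 0.168). CCT4 measured 11.06, 11.09 and 11.17 with vehicle and 11.22, 11.25 and 11.29 with ox-LDL, a difference of 0.15 (limma adjusted p = 0.230). These 3 subunits were higher on every ox-LDL array, with vehicle arrays closer together than those of CCT7 and CCT2.

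CCT8 measured 10.93, 10.89 and 10.73 with vehicle and 10.95, 10.99 and 10.93 with ox-LDL, a difference of 0.11 (0.05 without the third vehicle array). CCT6A measured 11.38, 11.31 and 11.52 with vehicle and 11.54, 11.50 and 11.49 with ox-LDL, a difference of 0.10 (0.16 without that array). The groups of both overlapped. CCT6B, the testis form of the subunit, measured 3.71, 3.69 and 4.19 with vehicle and 3.80, 3.76 and 3.75 with ox-LDL, which is background in both groups.

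Over the 8 subunits the median difference was 0.17 against -0.03 over all tested probe sets, 7 were above 0 under each scaling tried, and 5 had no overlap. The comparison is unlike in level, with a median level of 11.10 for CCT and 7.13 for all probe sets. The 10724 probe sets above the median level had a median difference of 0.05, and with cyclic loess the CCT median was 0.12. Groups without overlap in this direction made up 19.1% of all probe sets, and 3955 of the 17115 above background. The CCT count called by limma was 0 in each direction, with 4 subunits at an unadjusted p under 0.05 (26.1% of all probe sets). CCT3 passed with an intensity trend and robust fit and among the brighter probe sets, and CCT5 with the former. A 95% interval of CCT3 from 0.04 to 0.38 and of CCT7 from 0.06 to 0.63 shows the sizes these arrays allow.

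Neither gene of the mitochondrial chaperonin passed. HSPE1, the lid of the chaperonin ring, measured 10.71, 10.72 and 10.14 with vehicle and 11.03, 11.12 and 11.10 with ox-LDL. All ox-LDL arrays were higher and the third vehicle array was far below its group, for a difference of 0.56 (SE 0.16, 95% interval 0.18 to 0.94, limma adjusted p = 0.0879). Without that array the difference was 0.37 and HSPE1 passed (limma adjusted p = 0.0172). HSPD1, the ring itself, measured 11.71, 11.66 and 11.76 with vehicle and 11.80, 11.80 and 11.84 with ox-LDL, a difference of 0.10 (SE 0.07, limma adjusted p = 0.368). The difference between the pair was not tested.

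**Figure D3:**
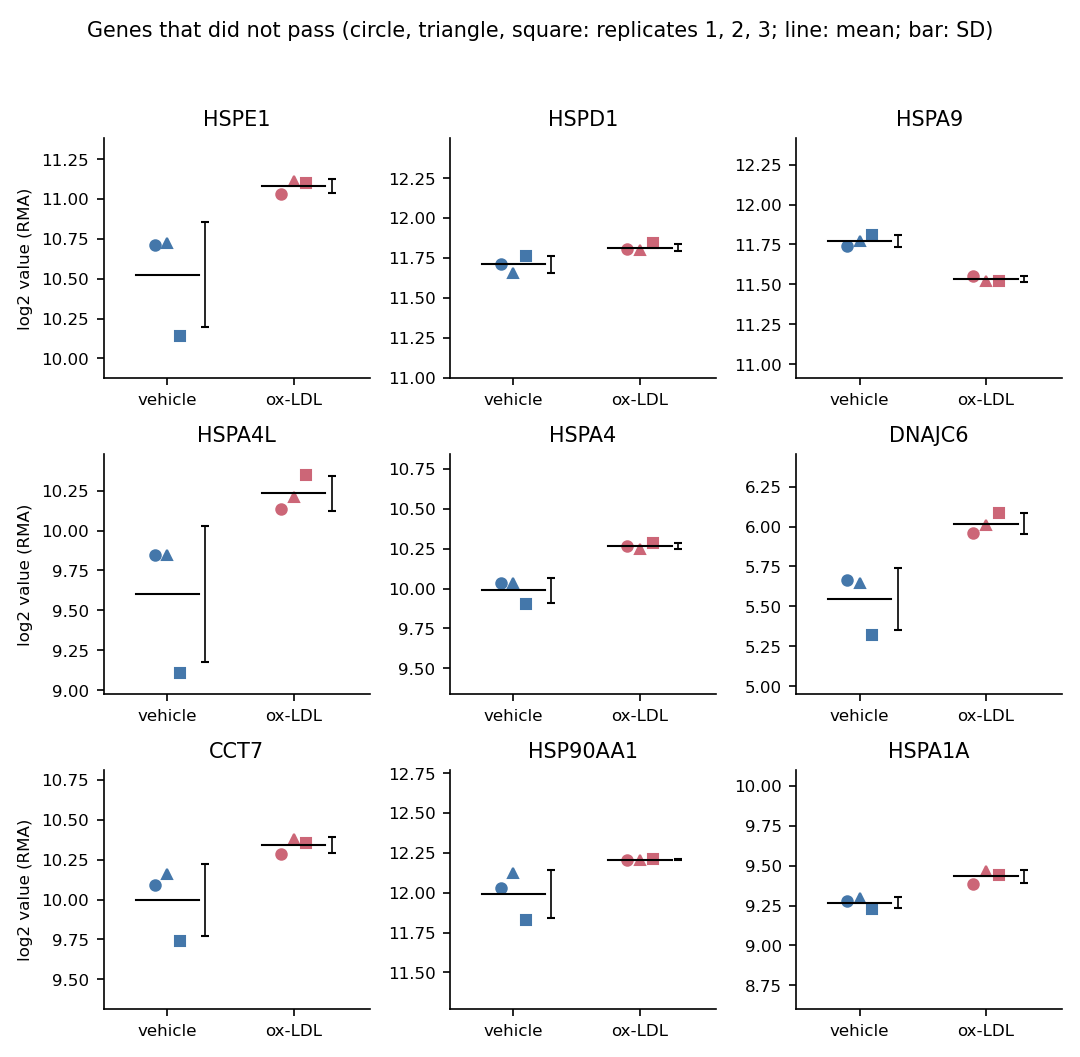
Log2 values (y axis) of 9 genes that did not pass, for each vehicle and ox-LDL array, with the group mean as a line and the SD as a bar. The square of the third vehicle array lies far below the other vehicle arrays in HSPE1 (10.14) and HSPA4L (9.11), while HSPA9 has tight groups around 11.77 and 11.53.

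Of the other class, CCT8L2 measured 5.21, 5.47 and 5.82 with vehicle and 5.33, 5.16 and 5.26 with ox-LDL, a difference of -0.25 with overlapping groups (-0.09 without the third vehicle array). DNAJC25-GNG10 measured 8.87, 8.83 and 8.67 with vehicle and 8.87, 8.87 and 8.92 with ox-LDL, a difference of 0.10 (0.04 without that array). Because the read-through shares exons with DNAJC25 (difference -0.15), which transcript each probe set reads is uncertain.

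When members were sorted by compartment into 3 lists, 4 of the 5 genes that fell stood in the list of the endoplasmic reticulum. Of its 10 members, HSPA13, DNAJC16, DNAJC10 and DNAJB11 fell and none rose, against 3.29% of all probe sets lower, and the median difference was -0.13 (-0.29 without the third vehicle array). The list was drawn up with earlier results of these data known, so its count is a description and no independent evidence. Of the 10 differences 7 were below 0, and 9 were under both further normalisations. The other 6 did not pass: DNAJC14 0.22, DNAJB12 0.03, DNAJC1 0.02, DNAJB14 -0.10, DNAJC18 -0.12 and DNAJC25 -0.15. DNAJC1 and DNAJC18 depended on the third vehicle array, without which they differed by -0.26 (limma adjusted p = 0.0589) and -0.31 (limma adjusted p = 0.0719), and DNAJC18 by 0.04 without vehicle replicate 2. The chaperones of the same compartment that the rule dropped also fell: on the log2 scale DNAJB9 fell by 2.10, HSPA5 fell by 0.71 and DNAJC3 fell by 0.41. The DNAJC3 call (limma adjusted p = 0.0441) was lost with equal array medians, with the unmoderated statistic, without any 1 ox-LDL array and without vehicle replicate 1 or 2. HSPA5 is the HSP70 of this compartment, and DNAJB9 and DNAJC3 are J-domain partners of it. These 3 were set apart with earlier results known, so their falls are a description too. SIL1, an HSP70 exchange factor of the same compartment, differed by 0.06 and did not pass (limma adjusted p = 0.723). The lists are given by counts, and the difference between them was not tested.

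The 10 mitochondrial members had 8 differences above 0 and a median of 0.16, with 5 at an unadjusted p under 0.05 and none passing. Over all probe sets 9630 of 21448 differences were above 0, and 26.1% had an unadjusted p under 0.05. Of the probe sets above background, 8121 of 17115 differences were above 0. HSPA9 and DNAJC4 (-0.11) were the 2 below 0. Without the third vehicle array DNAJC30 went from 0.16 to 0.03 and DNAJC19 from 0.15 to 0.06. In that fit 8 of the 10 were still above 0 and the median was 0.16. The heat-inducible cytosolic list, with 12 of its 14 genes measured, had 9 differences above 0 and a median of 0.17, with 3 at an unadjusted p under 0.05, near the share of all probe sets, and none passing. Only HSPA6, DNAJB6 (-0.09) and HSPB8 were below 0 in that list. These counts above 0 were the same under each scaling tried.

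**Figure D4:**
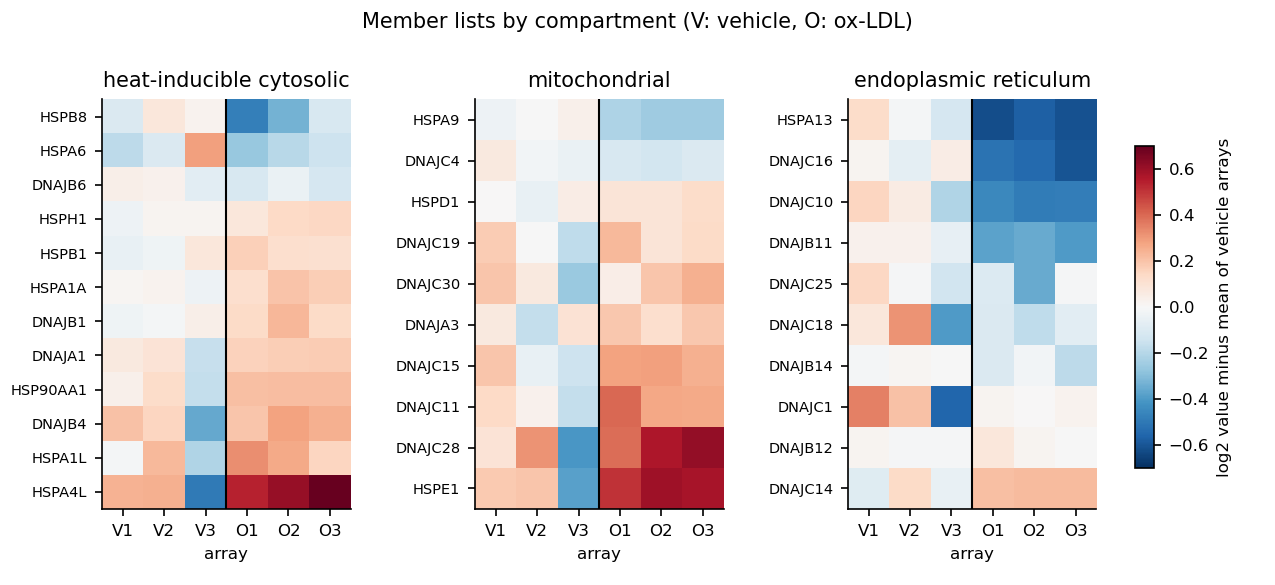
Each array's log2 value minus the mean of the vehicle arrays (colour scale) for the members of 3 compartment lists, with vehicle arrays V1 to V3 left of the line and ox-LDL arrays O1 to O3 right of it. The 4 rows of the endoplasmic reticulum list, HSPA13, DNAJC16, DNAJC10 and DNAJB11, are blue on all ox-LDL arrays, and column V3 stands apart in several rows such as DNAJC1, HSPE1 and HSPA4L.

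No gene that passed held a heat shock pair in its window. Either pair was in 23 members, of which 0 passed by limma, 16 had a difference above 0 and 7 below, with a median of 0.13. With 6.77% of all probe sets called, a count of 0 among 23 is not a result about these genes. The 6 genes with the 3-unit element ranged from HSPA6 at -0.20 to HSP90AA1 at 0.21. All 5 genes that fell had a window and 0 held a heat shock pair. TGATGCAA, the core of the ATF4 and CHOP composite site, was searched on both strands and was in 0 of 66 member windows, against 0.919% of all genes. The endoplasmic reticulum stress element, CCAAT and CCACG spaced by 9 bases, was added to the search after the values were seen and was also in 0, against 0.140%. Its second form, ATTGG and CCACG separated by any base, was in 0 too, against 0.105%. With shares this low, a count of 0 among 66 is not a result about these genes. CCACG alone was in 37 of 66, against 50.8% of all genes. The DNAJB11 window held 3 CCAAT boxes, 2 of them within the letters printed above.

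Leaving out the third vehicle array changed the count of genes higher with ox-LDL from 0 to 4 of 73: HSPE1, HSPA4L, HSPA4 and DNAJC6. Over all probe sets the share called higher went from 3.48% to 6.76%, so the change is not particular to these genes. The 5 genes that fell passed in that fit too, and 5 was its count of lower genes, where 5.69% of all probe sets were lower. Leaving out any 1 ox-LDL array gave 0 calls among the 73 genes in either direction. In those fits 0.434% to 0.494% of all probe sets were higher and 0.988% to 1.07% lower. The limma adjusted p without 1 ox-LDL array lay between 0.0523 and 0.0682 for HSPA13 and DNAJC16, and the differences of the 5 genes stayed between -0.62 and -0.36. DNAJB2, DNAJB11 and DNAJC10 also lost their calls without vehicle replicate 1 or 2.

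**Figure D5:**
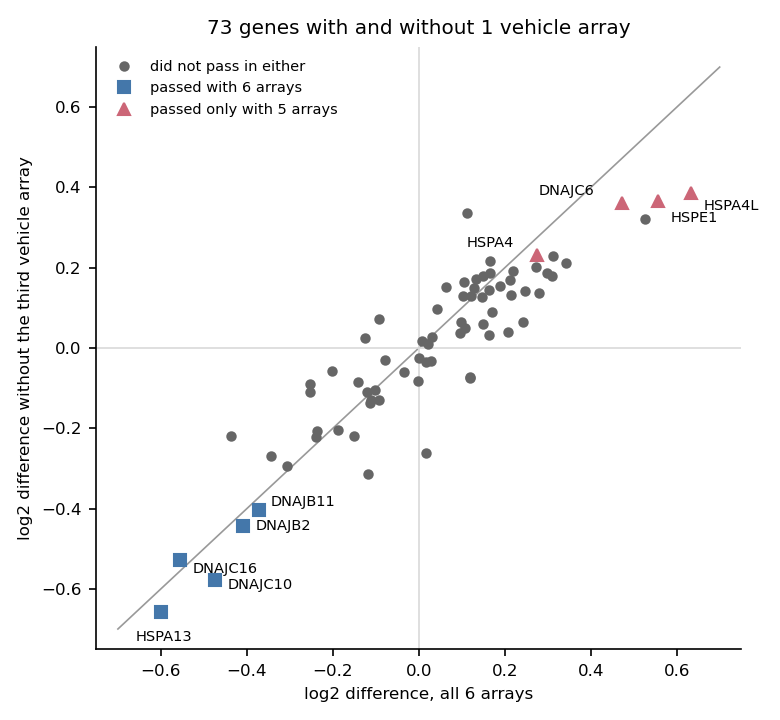
Log2 difference of the 73 genes with all 6 arrays (x axis) and without the third vehicle array (y axis); the diagonal marks equal values. The 5 blue squares stay low, from -0.66 to -0.40 on the y axis, while HSPE1, HSPA4L, HSPA4 and DNAJC6 (triangles) are smaller on the y axis and pass only there.

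Genes that work with these chaperones were taken from lists by role. Over all probe sets 3.48% were called higher and 3.29% lower. A count of 1 in so short a list is not a result about the list. Of 4 measured heat shock factors and binding proteins none passed: HSF1 differed by -0.10 (limma adjusted p = 0.374), HSBP1L1 by 0.18 and HSBP1 by 0.14. Of 12 exchange and adaptor factors of HSP70, BAG2 rose by 0.56 (SE 0.11, limma adjusted p = 0.0342), and BAG3, the heat-inducible adaptor that pairs with HSPB8, differed by -0.24 (limma adjusted p = 0.0844). BAG2 restrains the ubiquitin ligase CHIP.

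Of 13 measured HSP90 co-chaperones, FKBP4 rose and 12 did not pass. Their median difference was 0.19, against -0.03 over all tested probe sets and 0.05 over the 10724 above the median level. The median level of the list was 9.62, against 7.13 for all probe sets. FKBP4, the immunophilin of steroid receptor complexes, measured 9.40, 9.37 and 9.38 with vehicle and 9.86, 9.88 and 9.81 with ox-LDL, tight groups 0.47 apart (SE 0.07, limma adjusted p = 0.0112). PTGES3, or p23, differed by 0.35 (limma adjusted p = 0.0740) and STIP1, which bridges HSP70 and HSP90, by 0.22 (limma adjusted p = 0.112). TRAP1, the HSP90 of mitochondria, measured 9.03, 9.00 and 8.65 with vehicle and 9.72, 9.69 and 9.61 with ox-LDL. It rose by 1.71-fold, with no overlap (difference 0.77, SE 0.11, limma adjusted p = 0.0126). HSP90B1, listed beside TRAP1, was not measured.

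Of 13 measured partners of CCT, PDCL3 rose by 0.54 (SE 0.12, limma adjusted p = 0.0435) and PFDN2 fell by 0.34 on the log2 scale (SE 0.07, limma adjusted p = 0.0339). PDCL3 is a phosducin-like cofactor of the ring, and PFDN2 is a subunit of prefoldin, which hands over unfolded actin and tubulin. None of 9 mitochondrial protease and stress genes passed, LONP1 differing by -0.26 and CLPX by 0.29. The calls of BAG2, FKBP4, TRAP1, PDCL3 and PFDN2 were each lost when any 1 ox-LDL array was left out. Those of BAG2, PDCL3 and PFDN2 were also lost without vehicle replicate 2, and that of PFDN2 without vehicle replicate 1. BAG2, TRAP1 and PDCL3 lost theirs with the unmoderated statistic, and all but TRAP1 with the replicate number as a block. Without vehicle replicate 3 the differences were 0.65 for TRAP1, 0.41 for PDCL3, 0.45 for BAG2, 0.47 for FKBP4 and -0.32 for PFDN2.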

How the data were processed

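Total RNA of 6 samples of T24 cells was hybridised to 1-colour Affymetrix arrays. The deposited values are log2 signals that the authors normalised with RMA, per the submitters' processing notes; the RMA software version and the genome build were not given in the sources used here. Of 24350 probe sets, 2902 controls (612 negative, 2197 positive, 63 spike-in and 30 other) were left out and 21448 tested. Gene names came from the platform annotation, and all 73 gene numbers were found in the RefSeq table.

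Groups were compared with limma 3.58.1 (lmFit and eBayes, R 4.3.3) with Benjamini-Hochberg adjustment over all tested probe sets, without a filter on level. The procedure was tested on simulated data. Values on every array are given for members that passed, the 2 smallest p per subfamily that did not, and a fixed set of well-known chaperones; DNAJC1, DNAJC18, HSPA2, HSPA6 and some others are named after their values were seen. The members and lists were chosen with earlier results of these data known. Alternatives changed centring, normalisation, filter, variance model, array weights, block, threshold and each array in turn. Deviations from group means correlated at -0.0061, 0.0298 and 0.0196 between arrays of the same replicate number. The number of arrays limits the precision. A comparison of protein sequences was not run.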

Additional observations from a re-analysis of the deposited data

How the results depend on the processing

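The count of members higher with ox-LDL was 0 in the reported fit, with 23 members at an unadjusted p under 0.05 in either direction. It was 4 of 50 members when only the brighter probe sets were tested. It was 5 with an intensity trend and robust fit, 6 with array weights and 3 at an adjusted p under 0.10. When 1 array was left out it ranged from 0 to 4. The count of lower members was 5. It was 6 of 50 with the brighter probe sets, and 6 of 73 with the trend, array weights or an adjusted p under 0.10. With equal array medians it was 4. It was 1 under the stated selection of unadjusted p up to 0.001 together with 1.5-fold or more (HSPA13). At an adjusted p under 0.01 it was 1 (DNAJC16), and it ranged from 0 to 5 when 1 array was left out. With the replicate number as a block 2 lower members were called, HSPA13 and DNAJC16, and the counts over all probe sets were 244 higher and 306 lower against 746 and 705; the numbers did not pair the arrays. Over all probe sets the counts were 1608 and 1041 with the trend, 2140 and 1822 with array weights, 215 and 281 under the stated selection, 1450 and 1220 without vehicle replicate 3, and 406 and 400 or 332 and 386 without vehicle replicate 1 or 2. Without an ox-LDL array they were 97 and 212, 93 and 212, or 106 and 229. The filter on brighter probe sets gave 1571 and 1037 of 10724. An adjusted p under 0.10 gave 1562 and 1275 of 21448, and under 0.01 the counts were 128 and 254. The unmoderated statistic gave 546 and 541.

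HSP90AB1 changed sign from 0.01 to -0.0055 with a second quantile normalisation, -0.0320 with cyclic loess and -0.0054 with array weights, and ranged from -0.0210 to 0.0258 when 1 array was left out. CCT6B, at background, changed from -0.09 to 0.0549 with array weights and ranged from -0.18 to 0.0718 when 1 array was left out. The cause was not tested. With the unmoderated statistic 5 members were lower, DNAJC10 being lost and HSPA9 gained. HSPA9 also passed as lower with the trend, array weights and the brighter probe sets. With 3 arrays a group, signals at or below background in 9 members give no order.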
